A study of Homo sapiens with 4 samples.

Results

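Complex I, the NADH:ubiquinone oxidoreductase of the mitochondrial inner membrane, was described through the genes whose symbol starts with NDUF, which name its nuclear-encoded subunits and the NDUFAF assembly factors. Of the 15562 genes in the RNA-seq table, 47 met this rule. They comprised 7 nuclear-encoded core subunits, 30 accessory subunits, 8 assembly factors, and NDUFA4 with its paralog NDUFA4L2. Subunits encoded outside the nucleus fall outside this rule and are not in the sums below. The cells were H1975, a human lung adenocarcinoma line labelled as wild type. The hypoxia library came from cells held for 24 h in a gas mixture of 1% O2, 5% CO2 and 94% N2, and the normoxia library from cells grown at 5% CO2 in the same serum-containing medium. Each condition was 1 RNA-seq library, so differences carry the 95% interval of counting error alone, and none could be set against the spread between cultures.

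Complex I oxidises NADH in its matrix arm and passes the electrons through a chain of iron-sulfur clusters to ubiquinone, while its membrane arm pumps protons. The NADH-binding end is called the N module, the part that reduces ubiquinone the Q module, and the membrane arm is built in proximal and distal parts. Core subunits carry the catalysis, accessory subunits stabilise the structure, and assembly factors help to build it and are absent from the finished enzyme. Cells short of oxygen are known to lower their respiration, in part through factors that act on the respiratory complexes.

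The NDUF transcripts, those of the assembly factors and NDUFA4 among them, were slightly lower in hypoxia. The size of the difference was a few percent. Summed over the 46 genes that reached a CPM (counts scaled to the library size) of 1 in at least 1 library, there were 87709 reads under hypoxia and 87615 under normoxia, out of 18943320 in the hypoxia library and 17643836 in the normoxia library. After TMM scaling (trimmed mean of M values) the hypoxia over normoxia ratio of these sums was 0.939 (0.930 to 0.948). The genes made up 0.463% of all counts in hypoxia and 0.497% in normoxia. The median log2 ratio of the 46 genes was -0.073, against 0.003 for the 12725 genes that passed the same filter. In bulk RNA, fewer cells that carry a transcript and less of it per cell cannot be told apart.

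The shift was spread over many genes and no single ratio was far from 1. A log2 ratio below 0 was found for 39 of the 46, against 49.3% of all genes. The interval lay wholly below 0 for 14 genes (30.4%), against 14.0% of all genes, and wholly above 0 for 0 genes, against 15.0% of all genes. None of the 46 reached a 2-fold difference with an interval that excluded 1, a size reached by 0.912% of all genes, 0.440% on the lower side and 0.472% on the higher side. A ratio of 0.8 or less with an interval below 1 was found for 1 member, NDUFAF8, against 3.29% of all genes, and a ratio as far on the higher side for 0, against 3.41%. The precision was high: 30 genes had 1000 or more counts in both libraries, the median half-width of the interval was 0.11 on the log2 scale, and the interval of 46 of 46 genes lay within 1.5-fold either way, against 81.6% of all genes. Differences of 1.5-fold therefore lay outside what counting error allowed for each of them.

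**Figure D1:**
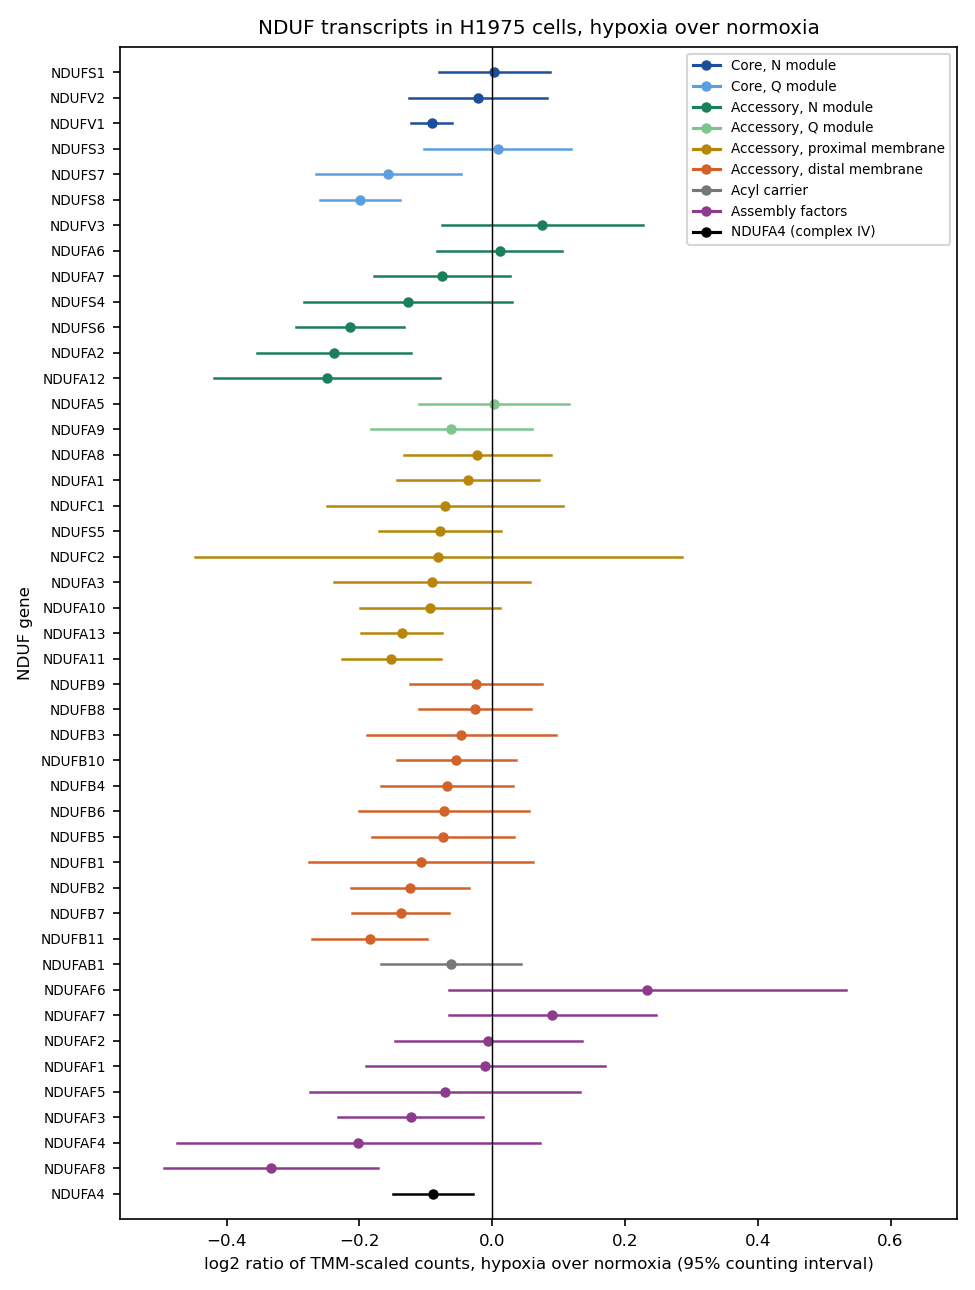
Log2 ratio of TMM-scaled counts, hypoxia over normoxia, for 45 of the 46 NDUF genes that passed the filter (vertical axis, grouped by role), with points for the ratio and bars for the 95% counting interval. Of the bars, 14 lie wholly left of 0 and 0 wholly right of it, and NDUFAF8 is lowest at -0.33.

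Known targets of hypoxia-inducible factor (HIF) differed more than any NDUF gene that passed the filter. All 8 taken as a check of the labels had intervals wholly above 0, against 15.0% of all genes. They ran from PDK1, which restrains pyruvate entry into mitochondria, at 0.42 (0.25 to 0.58) to NDRG1 at 1.32. These 8 were chosen with earlier results of these data known, so they are no independent check. All 9 epithelial markers passed the filter, and their summed counts were 161931 in hypoxia and 166311 in normoxia, a ratio of 0.913 (0.907 to 0.919). The keratins KRT7, at a log2 ratio of -0.42 (-0.45 to -0.40), KRT18 at -0.13, KRT8 at -0.10 and KRT19 at -0.09 had intervals below 0. EGFR at 0.30 (0.24 to 0.36) and the lung lineage factor NKX2-1 at 0.12 (0.01 to 0.22) had intervals above 0. EPCAM at 0.09 (-0.02 to 0.19), CDH1 at 0.07 (-0.08 to 0.21) and NAPSA at 0.14 (-0.28 to 0.57) had intervals that include 0. The median log2 ratio of the 9 markers was 0.066, and the 4 below 0 were the keratins. The marker sum was thus lower in hypoxia together with the NDUF sum through the abundant keratins, while the median marker was not. The part of these markers in the result was not tested. Of 4 leukocyte, 6 fibroblast and 4 endothelial markers, 3, 6 and 2 passed the filter. Among the markers that passed, 3 had an interval below 0 and 1 above, against 14.0% and 15.0% of all genes. Their summed counts over the markers that passed were 4478 in hypoxia and 4279 in normoxia for leukocytes, nearly all from CD68, 2276 in hypoxia and 2042 in normoxia for fibroblasts, mostly COL1A1, and 97 in each library for endothelium. PTPRC and VWF, which define leukocytes and endothelium, had 2 counts each in hypoxia and 0 in normoxia. The part of other cells in the results below was not tested.

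Among the core subunits of the N module, NDUFV1, which binds NADH and the flavin that takes its electrons, had 17295 reads under hypoxia and 17281 under normoxia. Its log2 ratio was -0.09 (-0.12 to -0.06), the narrowest interval of the family. NDUFV2, which carries an iron-sulfur cluster beside it, had 1543 reads under hypoxia and 1469 under normoxia, giving a log2 ratio of -0.02 (-0.13 to 0.08). NDUFS1, the largest subunit and the holder of several clusters, had 2426 reads under hypoxia and 2270 under normoxia and a log2 ratio of 0.00 (-0.08 to 0.09). Only NDUFV1 of the 3 had an interval that left out 0.

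The core subunits of the Q module were not alike. NDUFS8, which holds the clusters that lead towards ubiquinone, had 4296 reads under hypoxia and 4627 under normoxia, giving a log2 ratio of -0.20 (-0.26 to -0.14). NDUFS7, the subunit with the last cluster before ubiquinone, had 1327 reads under hypoxia and 1387 under normoxia and a log2 ratio of -0.16 (-0.27 to -0.05). NDUFS3, which binds to them in the matrix arm, had 1381 reads under hypoxia and 1288 under normoxia and a log2 ratio of 0.01 (-0.10 to 0.12). The intervals of NDUFS8 and NDUFS3 did not overlap, so the transcripts of these Q module partners did not shift by the same amount beyond counting error. Over the 7 core subunits the median log2 ratio was -0.024, and 3 intervals lay wholly below 0. Such an interval was found in 14.0% of all genes. Among other genes of similar count and length the share was 30.3%, which over 7 genes makes 2.12.

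The accessory subunits of the N module held the lowest subunit transcripts. NDUFA12, which takes the place of its paralog, the assembly factor NDUFAF2, late in assembly, had 543 reads under hypoxia and 605 under normoxia. Its log2 ratio was -0.25 (-0.42 to -0.08). NDUFA2, a small subunit with a thioredoxin-like fold, had 1149 reads under hypoxia and 1271 under normoxia and a log2 ratio of -0.24 (-0.35 to -0.12). NDUFS6, a zinc-binding subunit added late in assembly, had 2364 reads under hypoxia and 2571 under normoxia, giving a log2 ratio of -0.21 (-0.29 to -0.13). These 3 were the only accessory subunits of the N module with an interval below 0, out of 7. Among other genes of similar count and length the share was 27.4%, which over 7 genes makes 1.9. NDUFS4, another late-added subunit, was at -0.13 (-0.28 to 0.03) on 662 reads under hypoxia and 678 under normoxia. At the other end NDUFV3 had 764 reads under hypoxia and 680 under normoxia, giving a log2 ratio of 0.08 (-0.08 to 0.23), and NDUFA6 was at 0.01 (-0.08 to 0.11). The pair of accessory subunits of the Q module was nearer 0, with NDUFA5 at 0.00 (-0.11 to 0.11) and NDUFA9 at -0.06 (-0.18 to 0.06).

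In the membrane arm all 20 accessory subunits had a log2 ratio below 0, with a median of -0.076, and the intervals of 5 lay wholly below 0. Such an interval was found in 27.9% of other genes of similar count and length, which over 20 genes makes 5.58. The proximal part held 9 of them. NDUFA11, which braces the membrane arm, had 2862 reads under hypoxia and 2983 under normoxia, giving a log2 ratio of -0.15 (-0.23 to -0.08). NDUFA13, also known as the cell death regulator GRIM-19, had 4232 reads under hypoxia and 4362 under normoxia and a log2 ratio of -0.14 (-0.20 to -0.07). The highest of the proximal part was NDUFA8 at -0.02 (-0.13 to 0.09). In the distal part NDUFB11, an X-linked subunit, was lowest with 2095 reads under hypoxia and 2233 under normoxia, giving a log2 ratio of -0.18 (-0.27 to -0.10). NDUFB7 was at -0.14 (-0.21 to -0.07) and NDUFB2 at -0.12 (-0.21 to -0.04), while the highest, NDUFB9, was at -0.02 (-0.12 to 0.08). The 11 distal subunits thus ran over a narrow range. NDUFAB1, the mitochondrial acyl carrier protein that also serves fatty acid synthesis, was at -0.06 (-0.17 to 0.04). The count of NDUFC2 was low, at 127 in hypoxia and 126 in normoxia, with a log2 ratio of -0.08 (-0.45 to 0.29). In RefSeq its span overlaps the readthrough gene NDUFC2-KCTD14, so its level is uncertain, since reads of overlapping genes can be set aside in counting. NDUFA2, NDUFS6, NDUFB11 and NDUFAF3 each overlap a protein-coding gene on the opposite strand (TMCO6, MRPL36, RBM10 and DALRD3), and NDUFAF6 lies across CCNE2. So do NDUFA3, NDUFA5, NDUFAF7, NDUFB6 and NDUFC1 overlap one on the opposite strand (TFPT, ASB15, PRKD3, SMIM27 and NAA15). Without a statement that counting used strand, reads of such pairs cannot be told apart.

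The 8 NDUFAF assembly factors were the most varied group, with a median log2 ratio of -0.041. NDUFAF8 (Entrez 284184, chr17:81239311-81241310, GRCh38.p14), which stabilises NDUFAF5, had 585 reads under hypoxia and 691 under normoxia, giving a log2 ratio of -0.33 (-0.49 to -0.17) and the lowest of all 46 genes. NDUFAF5 itself, the enzyme that hydroxylates NDUFS7, had 404 reads under hypoxia and 398 under normoxia and a log2 ratio of -0.07 (-0.27 to 0.13). NDUFAF3 and NDUFAF4 bind each other while the Q module is built. NDUFAF3 was at -0.12 (-0.23 to -0.01) on 1360 reads under hypoxia and 1389 under normoxia. NDUFAF4 was at -0.20 (-0.47 to 0.07) on 217 reads under hypoxia and 234 under normoxia, too few to separate it from 0. NDUFAF1, part of the complex that assembles the membrane arm, was at -0.01 (-0.19 to 0.17), and NDUFAF2, the paralog of NDUFA12, also at -0.01 (-0.15 to 0.13). The highest values were those of NDUFAF7, an arginine methyltransferase, with 721 reads under hypoxia and 635 under normoxia at 0.09 (-0.07 to 0.25), and NDUFAF6 with 213 reads under hypoxia and 170 under normoxia at 0.23 (-0.06 to 0.53). Both intervals include 0. The intervals of NDUFAF8 and NDUFAF7 did not overlap, though NDUFAF7 shares its span with PRKD3 on the opposite strand, with the limit given above. The lengths of this pair also differ, at 572 bases for NDUFAF8 and 4187 for NDUFAF7, and length moved with the ratio (below). NDUFAF2, at 632 bases and with no overlapping RefSeq gene, likewise had an interval that did not overlap that of NDUFAF8.

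NDUFA4, long listed with complex I and now assigned to cytochrome c oxidase (complex IV), had 4435 reads under hypoxia and 4425 under normoxia, giving a log2 ratio of -0.09 (-0.15 to -0.03). Its paralog NDUFA4L2 is a known HIF target that lowers complex I activity in other cells. In H1975 it was the only one of the 47 genes under the filter, with 5 reads under hypoxia and 12 under normoxia, and its log2 ratio of -1.36 (-3.21 to 0.25) spans 0. Within counting error the upper bound leaves room for an increase of at most 0.25 on the log2 scale, while a lower level in hypoxia was not separated from 0. In RefSeq the span of NDUFA4L2 overlaps the protein-coding gene SHMT2, so its count is uncertain, with the limit given above for overlapping genes.

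The promoters of the lowest assembly factor, the lowest subunit, the most abundant subunit and the paralog known as a HIF target are shown because they could carry the letters of the hypoxia response element, ACGTG or GCGTG on either strand. Each runs 5′ to 3′ from 250 bases before to 50 after the RefSeq start site (GRCh38.p14), which for NDUFAF8 lies downstream of the gene's first annotated base. Capitals mark these letters and those searched for nuclear respiratory factor 1 (NRF1, GCGC, any 2 bases, GCGC), ETS factors (CCGGAAG) and YY1 (AAGATGGC), on both strands.
NDUFAF8 promoter (chr17:81239664-81239963, + strand): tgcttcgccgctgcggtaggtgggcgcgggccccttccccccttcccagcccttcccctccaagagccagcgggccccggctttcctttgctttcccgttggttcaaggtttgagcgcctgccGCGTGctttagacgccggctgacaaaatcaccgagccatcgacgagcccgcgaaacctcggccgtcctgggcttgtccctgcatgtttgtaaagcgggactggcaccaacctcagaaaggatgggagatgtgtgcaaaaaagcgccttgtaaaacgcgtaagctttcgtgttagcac
NDUFA12 promoter (chr12:95003648-95003947, - strand): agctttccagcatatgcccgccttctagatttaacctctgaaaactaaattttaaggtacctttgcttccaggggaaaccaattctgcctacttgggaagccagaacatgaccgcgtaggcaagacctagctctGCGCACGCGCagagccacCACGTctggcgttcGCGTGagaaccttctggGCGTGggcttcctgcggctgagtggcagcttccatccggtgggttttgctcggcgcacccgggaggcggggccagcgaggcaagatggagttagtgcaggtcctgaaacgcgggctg
NDUFV1 promoter (chr11:67606686-67606985, + strand): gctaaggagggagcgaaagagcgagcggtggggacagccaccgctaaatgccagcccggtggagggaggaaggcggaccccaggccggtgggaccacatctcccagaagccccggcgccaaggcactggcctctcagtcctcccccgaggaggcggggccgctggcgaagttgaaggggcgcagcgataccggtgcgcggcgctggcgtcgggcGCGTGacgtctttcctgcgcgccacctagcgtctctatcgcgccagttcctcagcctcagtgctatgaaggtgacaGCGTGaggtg
NDUFA4L2 promoter (chr12:57240713-57241012, - strand): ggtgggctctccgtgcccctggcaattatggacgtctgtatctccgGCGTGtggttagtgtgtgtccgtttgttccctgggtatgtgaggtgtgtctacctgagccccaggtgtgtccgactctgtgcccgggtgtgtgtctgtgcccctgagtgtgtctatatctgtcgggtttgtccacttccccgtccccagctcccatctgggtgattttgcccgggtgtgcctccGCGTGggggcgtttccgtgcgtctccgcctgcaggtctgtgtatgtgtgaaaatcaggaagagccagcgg

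RefSeq promoters were at hand for 41 of the 47 genes. The hypoxia element letters were in 26 of them (63.4%), and in 63.1% of the 10426 promoters of genes that passed the filter, so they did not set the family apart. Members with them had a median log2 ratio of -0.091 (25 genes) and those without of -0.070 (15 genes). The order was reversed for the difference from other genes of similar count and length. Its median was -0.035 with the letters and -0.055 without them. NRF1 letters were in 8 promoters (19.5%, against 15.8% of all), that of NDUFA12 among them, and ETS letters in 6 (14.6%, against 19.5%). YY1 letters were in 6 promoters (14.6%, against 5.42% of all), and in each of the 6 they lay on the gene's own strand just after the start site, at the place where 3.15% of all promoters hold them. The 6 genes had log2 ratios between -0.16 and 0.01. In 3 promoters (NDUFA3, NDUFA11 and NDUFA12) NRF1 and hypoxia element letters share a base, and YY1 letters share none with another motif. The stretches of these genes below, 30 bases each, show the shared place, with the YY1 letters in capitals. Their first base lies between base 11 after the start (NDUFA9) and base 26 (NDUFA6). Each holds an ATG because the searched letters themselves contain it.
NDUFA3 (chr19:54102865-54102894, + strand): ccgcggagacaAAGATGGCtgcgagtaagt
NDUFA6 (chr22:42090729-42090758, - strand): gatgctttggcAAGATGGCggggagcggcg
NDUFA7 (chr19:8321343-8321372, - strand): atcgcggacggAAGATGGCgtccgccaccc
NDUFA9 (chr12:4649113-4649142, + strand): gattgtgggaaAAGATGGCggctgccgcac
NDUFS4 (chr5:53560649-53560678, + strand): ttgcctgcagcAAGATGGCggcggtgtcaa
NDUFS7 (chr19:1383913-1383942, + strand): aggccgaggccAAGATGGCggtgctgtcag

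Levels compared per length differed far more between members than between conditions. In the authors' FPKM (fragments scaled to gene length and library size) the 46 genes ran from 2.61 to 596 in hypoxia, with a median of 56.3, and from 2.24 to 639 in normoxia, with a median of 66.3. NDUFV1 was highest in both libraries, at 596 FPKM in hypoxia and 639 in normoxia, 10.6 times the family median in hypoxia and 9.64 times in normoxia. It stood at rank 90 among all genes in hypoxia and 89 in normoxia. It held 19.7% of all NDUF counts in either library. NDUFA13 followed with 429 FPKM in hypoxia and 475 in normoxia, and NDUFS8 with 308 in hypoxia and 356 in normoxia. NDUFS6 came next, with 241 in hypoxia and 281 in normoxia. The lowest in hypoxia was NDUFAF6, at 2.61 FPKM against 2.24 in normoxia. NDUFC2 had 3.09 FPKM in hypoxia and 3.29 in normoxia, and NDUFAF4 had 4.76 in hypoxia and 5.51 in normoxia. By group the median FPKM of the assembly factors was 13.7 in hypoxia and 14.0 in normoxia, below that of the accessory subunits (72.2 in hypoxia, 78.9 in normoxia). The order hardly changed with oxygen: the rank of 46 of 47 genes moved by at most 2 places, and Spearman's rho between the libraries was 0.998 over the 46 genes.

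**Figure D2:**
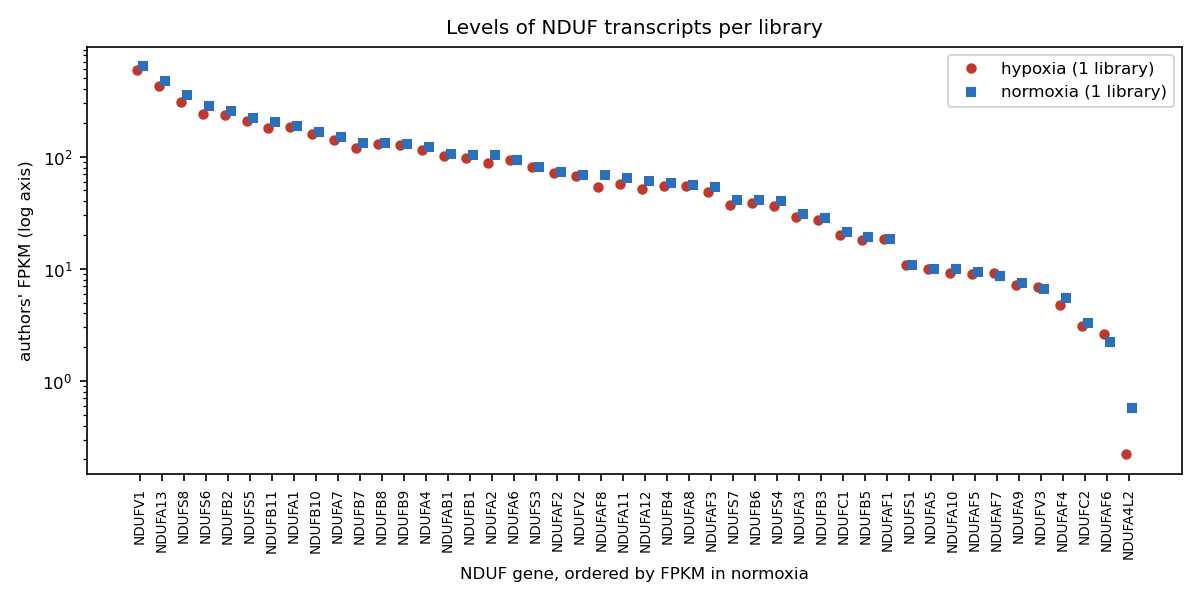
FPKM of 46 of the 47 NDUF genes (vertical log axis), with hypoxia as circles and normoxia as squares, ordered by the level in normoxia, 1 library each. NDUFV1 is highest at 596 FPKM in hypoxia and 639 in normoxia, and NDUFA4L2 lowest at 0.22 in hypoxia and 0.57 in normoxia.

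FPKM depends on the length assigned to each gene, which was recovered here from count and FPKM and ran from 317 bases (NDUFB1) to 11774 (NDUFS1) over the 46 genes, with a median of 1339. Over all genes that passed, the median length was 4007 bases. The definition of length that the authors used is not stated. The FPKM of the members was lower where the length was greater, with a rho of -0.77 over 46 genes. NDUFS1, the longest, had 10.9 FPKM in both libraries, while NDUFA11 with a similar count and 2637 bases had 57.3 in hypoxia and 64.1 in normoxia.

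Length also moved with the ratio, in the family and beyond it. Over the 12679 other genes the log2 ratio and the implied length had a rho of 0.21, and over the 46 members one of 0.35. Other genes under 750 bases had a median log2 ratio of -0.041, and those of 6000 bases or more one of 0.050. Members under 750 bases numbered 15, with a median of -0.12, all of them below 0 and 8 with an interval below 0, against 25.3% of the 178 other genes of that length. From 1500 to 3000 bases all 11 members lay below 0 and 4 had an interval below 0, against 18.9% of other genes. The 12 members from 750 to 1500 bases had a median of -0.066, close to the -0.059 of other genes. The 8 members of 3000 bases or more had 0 intervals below 0. Among other genes such intervals made up 12.7% from 3000 to 6000 bases and 7.62% from 6000 bases. The 4 members from 3000 to 6000 bases had a median of 0.083, against 0.008 for other genes. The 4 of 6000 bases or more had a median of -0.030, against the 0.050 of other genes. All values here come from the same pair of libraries, and the part of length in the result was not tested beyond this comparison.

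**Figure D3:**
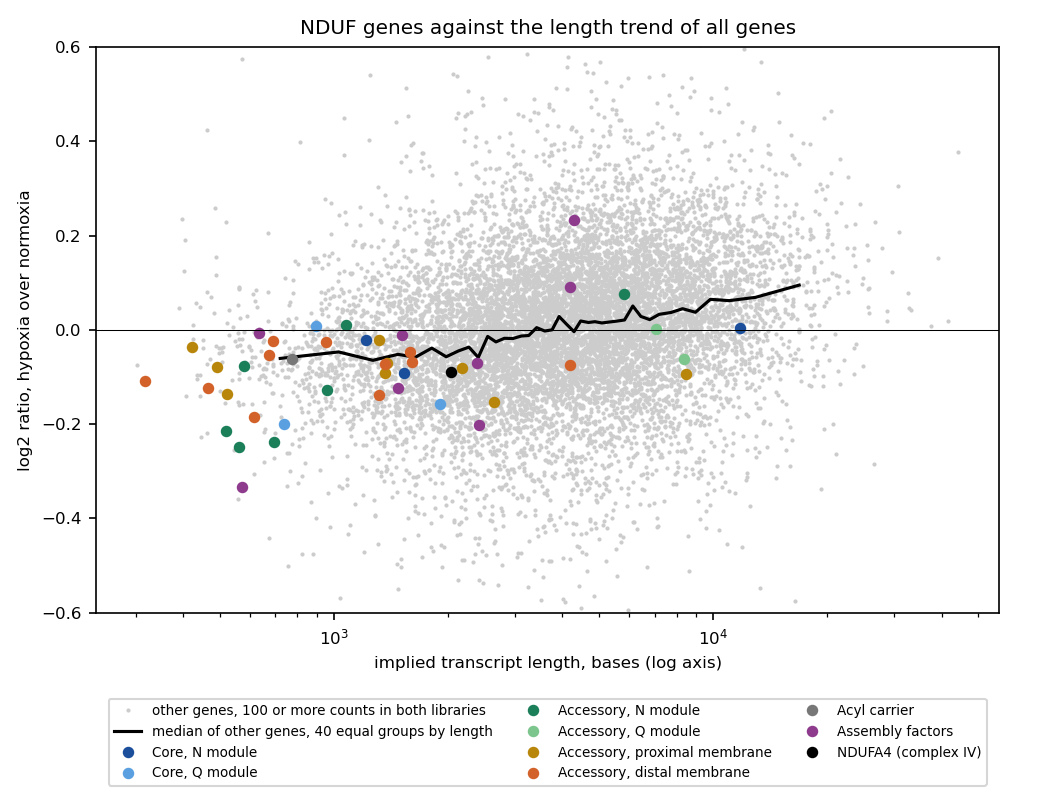
Log2 ratio, hypoxia over normoxia (vertical axis), against implied length in bases (horizontal log axis), with 45 of the 46 NDUF genes coloured by role, 10646 other genes (at least 100 counts in each library) in grey and the median of all 12679 other genes, in 40 equal groups by length, as a line. A further 47 grey genes lie beyond 0.6 either way, and the 15 NDUF genes under 750 bases all lie below 0.

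Each member was therefore set beside the 200 other genes nearest to it in count and length. These similar genes were themselves lower in hypoxia, with a median over members of -0.056, and the median difference of a member from its similar genes was -0.038. Of the 46 members, 31 lay below the median of their similar genes, against 49.7% of other genes. On average 26.3% of the similar genes had an interval below 0, which over 46 genes makes 12.1, beside the 14 counted. An interval above 0 was found in 10.2% of similar genes, which makes 4.67, beside 0 counted. The excess of intervals below 0 over all genes was thus for the most part shared by genes of the same count and length. The lower median was shared only in part, since a median difference of -0.038 remained. Of the 46, 7 members lay under the 10th percentile of their similar genes and 0 above the 90th, against 1314 and 1349 of all 12725 genes. Only 178 other genes were under 750 bases, so the similar genes of the shortest members reach longer lengths. Without replicates these counts have no test.

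The 7 members were NDUFAF8, NDUFA12, NDUFA2, NDUFS6, NDUFS8, NDUFA11 and NDUFA10. NDUFAF8 lay 0.26 under the median of its similar genes, at a log2 ratio of -0.33 against -0.07, and only 3.0% of them were lower. NDUFA12 lay under them with a difference of -0.18, NDUFA2 with -0.17, NDUFS6 with -0.16, NDUFS8 with -0.15, and NDUFA11 and NDUFA10 with -0.14 each. NDUFA10, an accessory subunit with the fold of a nucleoside kinase, had 1477 reads under hypoxia and 1478 under normoxia, and its log2 ratio of -0.09 (-0.20 to 0.01) stood beside similar long genes whose median was 0.05. The only other member more than 0.15 from its similar genes on the low side was NDUFAF4 at -0.17, with few counts, and on the high side it was NDUFAF6 at 0.21.

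**Figure D4:**
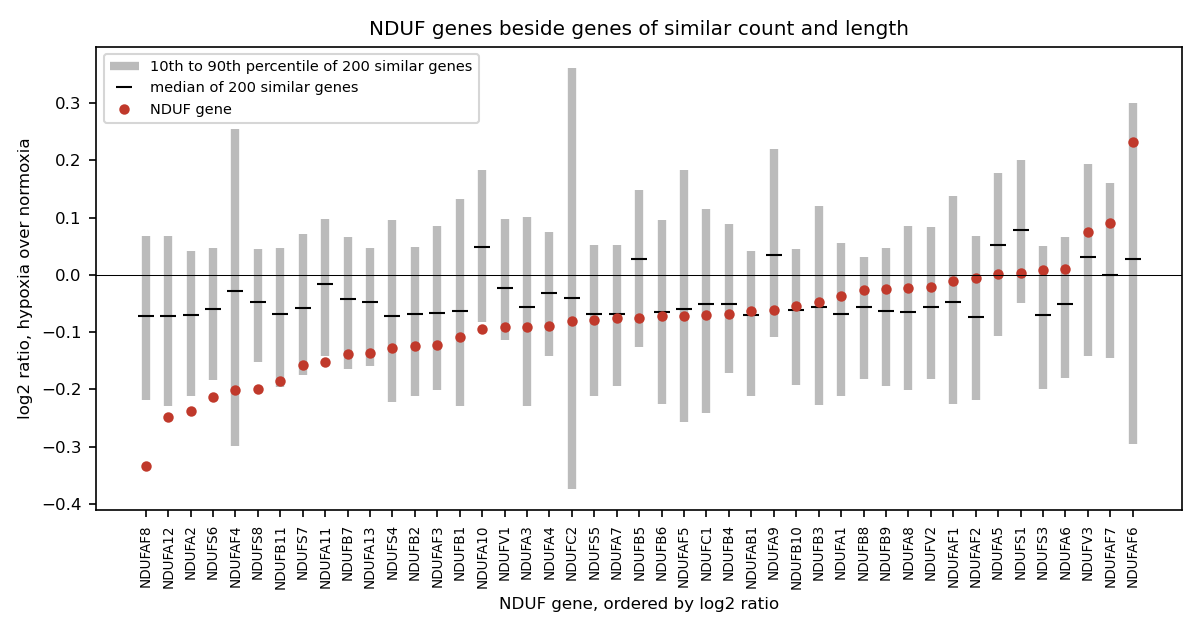
Log2 ratio, hypoxia over normoxia, of 45 of the 46 NDUF genes (points, ordered from low to high) beside the median (dash) and the 10th to 90th percentile (grey bar) of the 200 other genes most like each in count and length. The 7 points under their bars include NDUFAF8, NDUFA12, NDUFA2, NDUFS6 and NDUFS8, and 0 points lie over theirs.

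By role, the difference from similar genes had a median of -0.069 over the 7 core subunits, -0.038 over the 30 accessory subunits and 0.012 over the 8 assembly factors, which fell on both sides (4 below, 4 above). By module it was -0.062 over the 10 genes of the N module, -0.073 over the 6 of the Q module and -0.028 over the 20 of the membrane arm. The differences between these medians have no test.

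Among the factors that help to build complex I but bear other names, few had an interval that left out 0. Of 13 listed, 13 passed the filter, 10 had a log2 ratio below 0, and the median was -0.078. An interval below 0 was found for 2 (15.4%), close to the 14.0% of all genes and the 18.8% of their similar genes, and one above 0 for 0. TMEM126A, which assists the membrane arm, was lowest with 396 reads under hypoxia and 445 under normoxia at -0.26 (-0.46 to -0.06). NUBPL, which delivers iron-sulfur clusters, was highest at 0.17 (-0.06 to 0.41). The partners of NDUFAF1 ranged from ACAD9 at -0.15 (-0.33 to 0.03) to TMEM186 at -0.01 (-0.27 to 0.24).

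The other respiratory complexes differed among themselves. Complex IV was as low as the NDUF genes by its median log2 ratio of -0.074, and its summed ratio was 0.964. Of its 28 intervals, 9 lay below 0 (32.1%) and 1 above (3.57%), against 14.0% and 15.0% of all genes. Among other genes of similar count and length the shares were 23.4% and 10.3%. Complex II had a summed ratio of 1.007, complex III one of 0.964 and complex V one of 0.973. Of the 8 intervals of complex II, 0 lay below 0 and 2 above (25.0%), against 25.3% and 9.81% among similar genes. Together the 69 genes of complexes II to V that passed had a median log2 ratio of -0.049, and their median difference from similar genes was -0.017. An interval below 0 was found for 17 (24.6%) and one above 0 for 3 (4.35%). Among similar genes the shares were 26.6%, which over 69 genes makes 18.3, and 10.6%. The summed ratio of the 69 genes was 0.972 (0.966 to 0.979), an interval that does not overlap the 0.930 to 0.948 of the 46 NDUF genes. The 77 genes of the mitochondrial ribosome had a median of -0.029, and a median of 0.028 above their similar genes. These intervals hold counting error only, and the difference between the complexes has no test across cultures.

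Regulators of mitochondrial gene expression, several of them known to act on the promoters of respiratory subunits, were mixed. Of 12 that passed, 8 had a log2 ratio below 0, 3 an interval below 0 (25.0%) and 1 above (8.33%), and the median was -0.076. Intervals below 0 were found in 14.0% of all genes and 12.6% of similar genes, and intervals above 0 in 15.0% and 16.6%. The median difference from similar genes was -0.104, with 9 genes below them and 3 above. The gene with an interval above 0 was YY1 at 0.12 (0.05 to 0.18), and NRF1 was at -0.08 (-0.27 to 0.12). TFB2M, a mitochondrial transcription factor, was lowest at -0.25 (-0.39 to -0.11) and TFB1M highest at 0.19 (-0.10 to 0.49). The coactivator gene PPARGC1A had 1 count in each library. Among genes that tie hypoxia to respiration, the mitophagy receptor BNIP3 was at 0.65 (0.56 to 0.75), BNIP3L at 0.27 (0.17 to 0.36) and the MYC antagonist MXI1 at 0.51 (0.37 to 0.66). The mitochondrial protease LONP1 was at 0.02 (-0.05 to 0.09), HIGD1A at 0.03 (-0.07 to 0.13) and the iron-sulfur scaffold ISCU at -0.08 (-0.20 to 0.05), and none of these 3 intervals left out 0. COX4I2 was not analysed here.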

How the data were processed

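The deposited table of counts holds whole reads for 15562 genes in 1 hypoxia and 1 normoxia RNA-seq library of H1975 cells. The FPKM that the authors deposited for the same genes served for levels and for each gene's implied length. Libraries were made with a stranded mRNA kit, per the labels' protocols. The build was GRCh38, and HISAT2, HTSeq, Cufflinks, Trimmomatic and Bowtie are named, per the submitters' processing notes. No source here states whether strand entered the counting. The values of 1 member, which the totals include, are not reported here. The miRNA libraries hold no NDUF gene and were not used here.

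Total counts were 18943320 in hypoxia and 17643836 in normoxia, where 1 read equals a CPM of 0.0530 in hypoxia and 0.0565 in normoxia. Counts were scaled with TMM in edgeR 4.0.16 (R 4.3.3). Ratios carry the exact conditional (Clopper-Pearson) 95% interval. They cover counting error only, and amplified reads are not separate molecules. With 1 library per condition no p-value was computed. The filter kept genes with a CPM that reached 1 in either library. Similar genes were the 200 nearest other genes in log2 mean count and log2 length, each divided by its SD. The computation of intervals and differences was checked on simulated counts that held counting error alone and differences put in beforehand. Such counts hold no spread between cultures, so the check covers the computation only. The members, the gene lists, the motifs and the comparison by length were chosen with earlier results of these data known. Named genes were the 7 core subunits, all NDUFAF factors, NDUFA4 and its paralog, the 6 members at each end by interval, the extremes of each list by ratio and the 3 highest and 3 lowest by FPKM. Of the genes outside the family, the extremes of 2 lists and all genes tying hypoxia to respiration were named, and the others named were chosen after their values were seen. Coordinates and promoters are from RefSeq (GRCh38.p14), matched by Entrez identifier for 47 of 47 genes and 41 promoters. Computations ran in Python 3.11.15 (scipy 1.17.1, pandas 2.3.3). The alternatives were DESeq2 1.42.0 size factors, upper quartile and total count scaling, FPKM with a pseudocount of 1 or 0.1, other filters, other folds and other choices of similar genes or members.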

Additional observations from a re-analysis of the deposited data

How the results depend on the processing

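Of 94 comparisons of summary values with an alternative, 92 kept their direction and stayed within counting error or, for numbers of genes, within 1.5 times. The 322 values of single members stayed within their main intervals. The exceptions were the number of members past the fold, which was 1 (at a ratio of 0.8 or less) in place of 0, and the median difference from similar genes, which was -0.078 when similar genes were chosen by count alone. The other choices gave -0.038 to -0.032, the last with length alone. The number of members below their similar genes ran from 30 to 40. The number of members with an interval below 0 was 14 under each scaling and filter. The family median ran from -0.083 to -0.072, and leaving out NDUFV1, a choice made after seeing the data, gave -0.072 and a summed ratio of 0.939. Total count scaling lowered each log2 ratio by 0.0099. Depth limits NDUFC2, NDUFAF4, NDUFAF6 and NDUFA4L2 most. No paired analysis was possible because each condition has 1 library. Leaving out a replicate was likewise not possible.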

Other observations

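NDUFV1 and NDUFS8, 2 of the 3 most abundant members per length, lie close together on chromosome 11, at 67606936 to 67612554 and 68030681 to 68036644 (GRCh38.p14). Within 300 kilobases on either side of the pair, a window chosen after seeing their levels, 23 other genes passed the filter. Of these, 8 (34.8%) had 100 FPKM or more in both libraries, against 4.97% of all other genes that passed. GSTP1, the detoxifying glutathione transferase, had 1419 FPKM in hypoxia and 1532 in normoxia, and PPP1CA, a catalytic subunit of protein phosphatase 1, had 696 in hypoxia and 723 in normoxia. In the same window 15 of the 23 genes had an interval below 0 and 0 had one above, against 14.0% below and 15.0% above of all genes. Their median log2 ratio was -0.099. High counts narrow the intervals: 19 of the 23 had 1000 or more counts in both libraries, and of the genes similar to the 23 in count and length 25.2% had an interval below 0 and 18.2% one above. The lowest by interval was NUDT8, a mitochondrial hydrolase gene near NDUFV1, with 731 counts in hypoxia and 913 in normoxia at -0.41 (-0.56 to -0.27). The values of NDUFV1 (-0.09) and NDUFS8 (-0.20) thus stand beside low values of their neighbours on the chromosome. Whether copy number or chromosomal position has a part in this was not tested.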
